A study of Mus musculus with 8 samples.

Results

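Transcripts of 33 genes that make, regulate, take up, move, export and esterify cholesterol were followed in whole mouse kidney, out of 15948 genes in the deposited table. Of the 33, 19 encode enzymes of sterol synthesis and 14 encode control, uptake, transport, efflux and esterification proteins. The genes were chosen by name from pathway knowledge, with earlier results of the same comparison known. All 33 were present in the table, and no filter on low values was applied to them. Their differences between groups are therefore given as a description, with values and standard errors and with no p-value for a member.

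Kidneys labelled Arhgef11Sglt2 DOCA (3 libraries) were compared with kidneys labelled Sglt2Cre DOCA (5 libraries). Arhgef11 encodes a guanine nucleotide exchange factor, and by its title the study includes a knockout restricted to the proximal tubule. Sglt2, the glucose transporter found in early proximal tubule cells, lends its promoter to drive Cre recombinase there, so a whole-kidney library also holds RNA of cells in which the Cre is not active. DOCA commonly stands for deoxycorticosterone acetate, a mineralocorticoid used to raise blood pressure. It appears in the label of both groups, so every library analysed here is from the DOCA condition. The labels gave no strain, sex, age, dose, duration or allele, and did not state that each library is 1 animal, so the spread between libraries may be partly technical. Arhgef11 itself had 2935, 3919 and 3905 normalized counts in Arhgef11Sglt2 libraries 1, 2 and 3, against 3629, 3479, 3682, 3680 and 3928 in Sglt2Cre libraries 1 to 5. Its whole-gene level in whole kidney therefore overlapped between the groups and does not check the labels, and directions below refer to libraries as labelled.

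The deposited values were on a log2 variance-stabilized scale, on which differences of weakly expressed genes are compressed. Normalized counts, which are counts adjusted for library depth, were obtained by inverting that scale. Levels and folds below are on the normalized-count scale, and log2 differences with their standard errors (SE) are on the deposited scale, always Arhgef11Sglt2 minus Sglt2Cre. Normalized totals ran from 43039280 to 45657416 in the Arhgef11Sglt2 libraries and from 45181960 to 46676184 in the Sglt2Cre libraries. Read depth, estimated from the step between low values, was 51400000 to 57900000 reads in the Arhgef11Sglt2 libraries and 33000000 to 59500000 reads in the Sglt2Cre libraries. A gene was called when limma gave an adjusted p below 0.05 over all genes, which 254 of 15948 genes did in the lower direction (1.59%) and 100 in the higher direction (0.627%).

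Cells make cholesterol from acetyl-CoA through mevalonate, isoprenoid diphosphates, squalene and lanosterol. When sterols in the endoplasmic reticulum run low, SCAP escorts the transcription factor SREBP2 to the Golgi, where proteases release its active part, and INSIG proteins hold the SCAP and SREBP2 complex back when sterols are plentiful. Oxysterols that accumulate with cholesterol activate the liver X receptors, which induce the exporters ABCA1 and ABCG1. Proximal tubule cells also take up filtered and circulating lipoproteins, so synthesis is 1 of several sources of sterol in the kidney.

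Promoters of members that lay lower in the Arhgef11Sglt2 libraries are shown with that of Abca1, the exporter that lay higher, because SREBP2 is known to act at sterol regulatory elements beside boxes bound by NF-Y. The windows are RefSeq sequence of build GRCm38.p6, from 250 bases before to 50 bases after the annotated start, in the direction of the gene. Capitals mark CCAAT on either strand (printed as ATTGG where it lies on the other strand) and the sterol regulatory element letters TCACCCCAC with at most 1 other letter. Hmgcs1 lies at chr13:119690101-119690400 (+ strand), Idi1 at chr13:8885356-8885655 (+ strand), Msmo1 at chr8:64733529-64733828 (− strand) and Abca1 at chr4:53159846-53160145 (− strand).
Hmgcs1: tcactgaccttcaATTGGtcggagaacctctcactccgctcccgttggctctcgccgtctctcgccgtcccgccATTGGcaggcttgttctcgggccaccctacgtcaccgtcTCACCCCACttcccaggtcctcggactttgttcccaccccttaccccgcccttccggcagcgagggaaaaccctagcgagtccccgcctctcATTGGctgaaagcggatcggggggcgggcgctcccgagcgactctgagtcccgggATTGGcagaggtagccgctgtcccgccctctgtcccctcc
Idi1: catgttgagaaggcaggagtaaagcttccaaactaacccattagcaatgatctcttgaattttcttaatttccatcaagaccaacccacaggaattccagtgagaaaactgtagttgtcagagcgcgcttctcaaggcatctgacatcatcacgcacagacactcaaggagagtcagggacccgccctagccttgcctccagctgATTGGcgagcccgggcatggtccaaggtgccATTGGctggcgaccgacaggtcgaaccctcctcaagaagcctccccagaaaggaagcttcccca
Msmo1: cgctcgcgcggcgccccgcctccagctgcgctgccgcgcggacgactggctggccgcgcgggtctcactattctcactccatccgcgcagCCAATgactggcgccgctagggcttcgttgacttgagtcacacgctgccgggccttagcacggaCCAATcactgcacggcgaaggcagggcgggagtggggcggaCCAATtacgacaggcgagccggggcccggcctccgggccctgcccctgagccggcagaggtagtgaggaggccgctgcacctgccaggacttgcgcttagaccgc
Abca1: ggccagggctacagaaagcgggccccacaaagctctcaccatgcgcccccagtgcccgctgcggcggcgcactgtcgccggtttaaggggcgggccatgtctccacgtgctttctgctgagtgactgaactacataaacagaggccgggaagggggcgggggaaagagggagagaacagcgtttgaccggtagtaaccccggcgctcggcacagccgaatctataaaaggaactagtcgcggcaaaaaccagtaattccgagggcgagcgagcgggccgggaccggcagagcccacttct

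The Hmgcs1 window held 4 CCAAT boxes and the full TCACCCCAC, which began 137 bases before the start. The Idi1 window held 2 CCAAT boxes and the Msmo1 window 3, and the Abca1 window held none. An entry was found for 27 of the 33 members, 16 of them synthesis genes. Entries were not found for Abcg1, Fdft1, Fdps, Npc1, Sqle and Stard4. CCAAT stood in 15 of the 16 synthesis genes (93.8%) and in 7 of the 11 other members (63.6%), against 42.5% of the 11821 matched genes of the table. The Sp1 box GGGCGG stood in 87.5% of the synthesis genes, in 81.8% of the other members and in 64.5% of the matched genes of the table. The strict element TCACNCCAC stood in 1 synthesis gene, Hmgcs1 (6.25%), and in none of the other members, against 1.43% of the matched genes. With at most 1 other letter allowed, TCACCCCAC was found in 4 synthesis genes (25%), which were Acat2, Hmgcs1, Nsdhl and Hsd17b7. It was also found in 3 other members (27.3%), which were Srebf2, Mylip and Nr1h3, against 12.3% of the matched genes. The liver X receptor element DR4, searched as a strict repeat of AGGTCA spaced by 4 bases, was in none of these windows and in 0.0148% of all 27025 genes of the promoter table. It was in none of the 11821 matched genes. Unlike the search for TCACCCCAC, this search allowed no other letter. It therefore cannot show whether the Abca1 window, or any other, holds a liver X receptor element. Both strands were searched, matches of different motifs may overlap, and a match is a description of these letters only.

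The synthesis genes lay lower in the Arhgef11Sglt2 libraries along most of the pathway, while the control, uptake and efflux genes as a group did not. The log2 difference was negative for 17 of the 19 synthesis genes, with a median of −0.51 and a range of −1.35 (Idi1) to 0.16 (Hsd17b7). The median was −0.01 over the 14 other members and −0.01 over all 15948 genes. The 9 genes up to Fdft1, which make the sterol precursors, had a median of −0.51, and the 10 genes from Sqle to Dhcr7, which make sterols, had a median of −0.49. Of the synthesis genes, 8 of 19 were called lower, beside 1.59% of all genes, and none was called higher, beside 0.627% of all genes. The 8 were Mvk, Mvd, Idi1, Fdps, Cyp51, Msmo1, Nsdhl and Dhcr7. Every Arhgef11Sglt2 library lay below every Sglt2Cre library for 12 of the 19, beside 8.14% of all genes. These counts come from the comparison with which the genes were chosen, so nothing is read from them.

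The number called changed when single libraries were left out, and so did the share called lower over all genes. In limma it was 0 without Arhgef11Sglt2 library 3, where 14 of the 19 and 2031 of all 15948 genes had an unadjusted p below 0.05. Of all genes, 0.226% were called lower there. The number was 12 without Arhgef11Sglt2 library 1, beside 4.74% of all genes called lower. It was 5 without Sglt2Cre library 1, beside 0.934%, and 2 without Sglt2Cre library 3, beside 0.602%. It was 1 without Sglt2Cre library 4 or without Sglt2Cre library 5, beside 0.125% and 0.389%. Over these exclusions of 1 library the median of the synthesis genes stayed between −0.53 and −0.38. In bulk tissue, fewer cells of a type and less RNA per cell cannot be told apart.

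**Figure D1:**
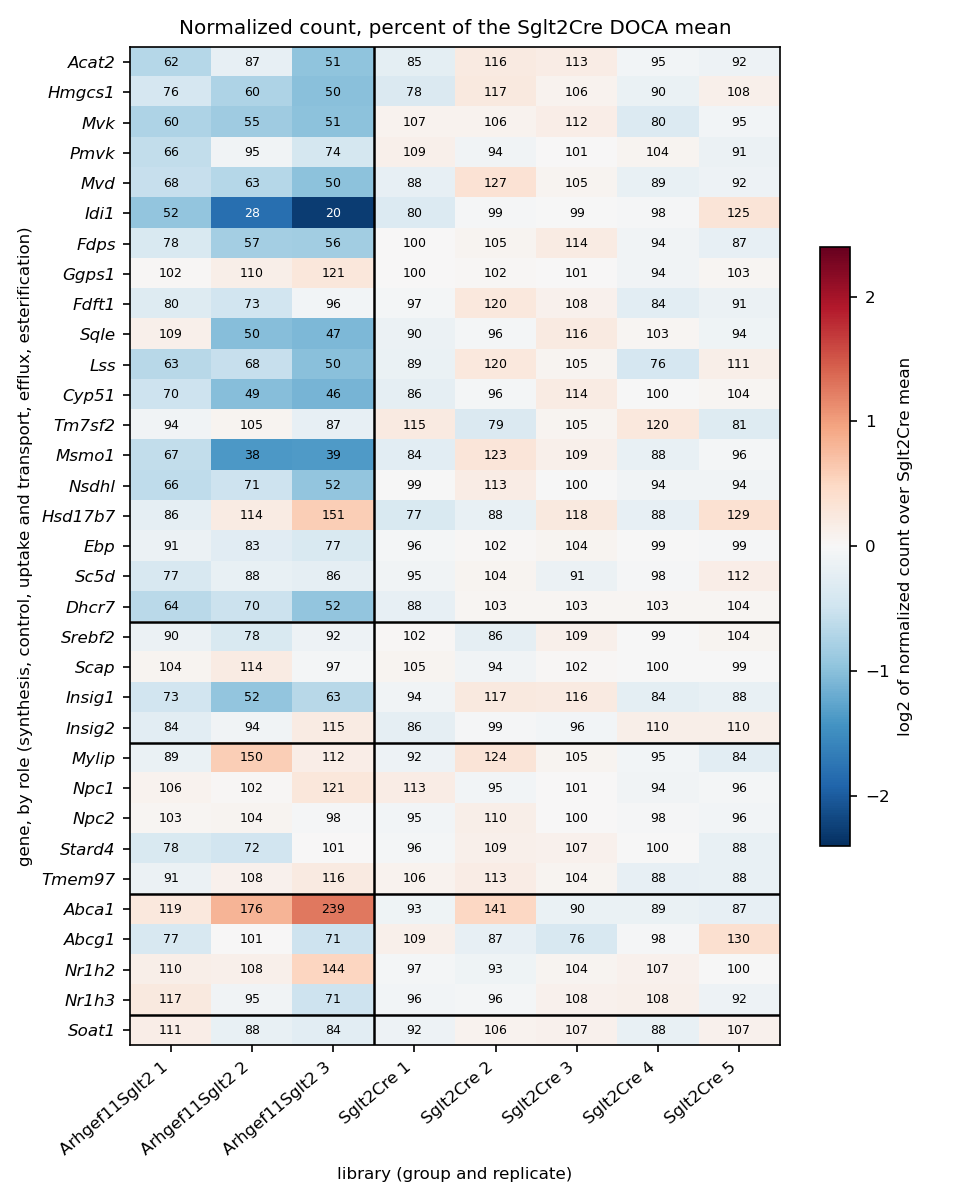
Normalized counts of the 33 genes (y axis, by role, enzymes in pathway order) in each of the 8 libraries (x axis), printed as percent of the Sglt2Cre mean and coloured by the log2 of that ratio. Most synthesis genes are blue in the 3 Arhgef11Sglt2 columns, with Idi1 at 20.5% in library 3, while Abca1 is red there.

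The first steps join acetyl-CoA units. Acat2, the cytosolic thiolase that condenses acetyl-CoA, had 2584, 3641 and 2125 normalized counts in Arhgef11Sglt2 libraries 1 to 3, against 3537, 4816, 4720, 3966 and 3819 in Sglt2Cre libraries 1 to 5. The groups overlapped, since Arhgef11Sglt2 library 2 lay above Sglt2Cre library 1, and the log2 difference was −0.52 (SE 0.15). Acat2 has a close paralog in mouse with which reads may be shared, so its level is uncertain. Hmgcs1, the cytosolic HMG-CoA synthase, had 16540, 13046 and 10898 normalized counts in the Arhgef11Sglt2 libraries, against 17145, 25606, 23266, 19672 and 23747 in the Sglt2Cre libraries. The groups did not overlap, but Arhgef11Sglt2 library 1 and Sglt2Cre library 1 lay close together. The mean of Hmgcs1 was 13495 ± 2847 in Arhgef11Sglt2 (SD, n = 3) and 21887 ± 3413 in Sglt2Cre (SD, n = 5), a ratio of 0.617 and a log2 difference of −0.68 (SE 0.16).

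The enzymes that turn mevalonate into isoprenoid diphosphates followed. Mvk, mevalonate kinase, had 305, 282 and 259 normalized counts in the Arhgef11Sglt2 libraries, against 547, 545, 573, 411 and 488 in the Sglt2Cre libraries. All 3 Arhgef11Sglt2 values were below the lowest Sglt2Cre value, and the ratio of means was 0.551 (log2 difference −0.43, SE 0.07). Pmvk, the next kinase, had a log2 difference of −0.21 (SE 0.08) with overlapping groups. Mvd, which decarboxylates mevalonate diphosphate, had 978, 895 and 719 normalized counts in the Arhgef11Sglt2 libraries, against 1251, 1811, 1504, 1270 and 1313 in the Sglt2Cre libraries. The groups again did not overlap, with a ratio of 0.604 (log2 difference −0.51, SE 0.11).

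Idi1, the isomerase that makes dimethylallyl diphosphate, had the most negative difference of the 33 genes. It had 2257, 1236 and 889 normalized counts in the Arhgef11Sglt2 libraries, against 3463, 4275, 4296, 4225 and 5396 in the Sglt2Cre libraries. The 3 Arhgef11Sglt2 libraries differed among themselves, at 52.1%, 28.5% and 20.5% of the Sglt2Cre mean, and all lay below the lowest Sglt2Cre library, which was at 80%. The mean was 1461 ± 711 in Arhgef11Sglt2 (SD, n = 3) and 4331 ± 690 in Sglt2Cre (SD, n = 5), a ratio of 0.337 and a log2 difference of −1.35 (SE 0.20). Fdps, farnesyl diphosphate synthase, had 1626, 1189 and 1172 normalized counts in the Arhgef11Sglt2 libraries, against 2093, 2187, 2384, 1960 and 1813 in the Sglt2Cre libraries. The groups did not overlap, and the ratio was 0.637 (log2 difference −0.51, SE 0.10). Ggps1, which diverts farnesyl diphosphate to geranylgeranyl diphosphate and so away from sterols, was 1 of the 2 genes of the list with a positive difference, 0.11 (SE 0.06), and its groups overlapped.

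The next enzymes make squalene, oxidize it and close it into a ring. Fdft1, squalene synthase, had a log2 difference of −0.20 (SE 0.10) with overlapping groups. Sqle, squalene epoxidase, had 4332, 1974 and 1890 normalized counts in the Arhgef11Sglt2 libraries, against 3609, 3838, 4646, 4115 and 3738 in the Sglt2Cre libraries. Library 1 of the Arhgef11Sglt2 group was thus within the Sglt2Cre range and above 4 of its 5 values, while libraries 2 and 3 lay below that range. The log2 difference of Sqle was −0.55 (SE 0.20), and −0.88 without Arhgef11Sglt2 library 1. Lss, the lanosterol synthase, had a ratio of 0.605 and a log2 difference of −0.53 (SE 0.12), with no overlap between groups.

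The enzymes from lanosterol to cholesterol differed in the size of their shift. Cyp51, the lanosterol demethylase, had 4671, 3265 and 3055 normalized counts in the Arhgef11Sglt2 libraries, against 5697, 6387, 7594, 6603 and 6866 in the Sglt2Cre libraries. All 3 Arhgef11Sglt2 values lay below the Sglt2Cre range, with a ratio of 0.553 (log2 difference −0.79, SE 0.13). Msmo1, the sterol C4-methyl oxidase, had 1473, 849 and 858 normalized counts in the Arhgef11Sglt2 libraries, against 1859, 2713, 2404, 1954 and 2127 in the Sglt2Cre libraries. Its groups did not overlap either, and its ratio of 0.479 was the second lowest of the 33 (log2 difference −0.82, SE 0.15). Nsdhl, the sterol dehydrogenase of the same demethylation, had 1742, 1883 and 1376 normalized counts in the Arhgef11Sglt2 libraries, against 2621, 3001, 2633, 2489 and 2490 in the Sglt2Cre libraries. The gap between the groups was wider than the spread within either, and the ratio was 0.63 (log2 difference −0.54, SE 0.09).

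Dhcr7, which reduces 7-dehydrocholesterol in the last part of the pathway, had 672, 739 and 549 normalized counts in the Arhgef11Sglt2 libraries, against 921, 1086, 1082, 1084 and 1090 in the Sglt2Cre libraries. It did not overlap between groups and had a ratio of 0.62 (log2 difference −0.45, SE 0.08). Ebp, the sterol isomerase, and Sc5d, the sterol desaturase, also had no overlap, with smaller log2 differences of −0.21 (SE 0.06) and −0.20 (SE 0.07). Tm7sf2, a sterol C14-reductase, had a difference of −0.03 (SE 0.09). Hsd17b7, the 3-keto reductase of the demethylation, had a difference of 0.16 (SE 0.15), and its Arhgef11Sglt2 libraries spread from 86.5% to 151.2% of the Sglt2Cre mean.

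**Figure D2:**
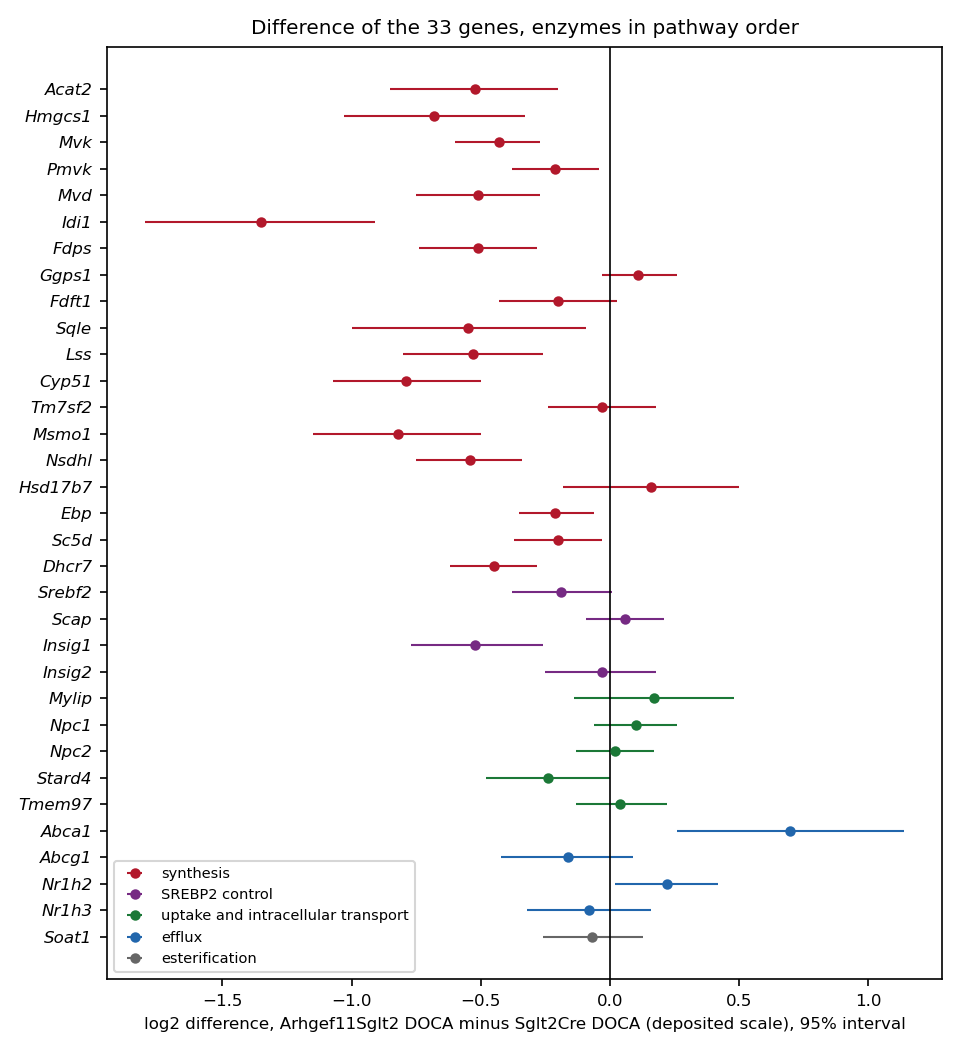
Log2 difference of each of the 33 genes, Arhgef11Sglt2 minus Sglt2Cre on the deposited scale (x axis), with its 95% interval from limma, by role (y axis, enzymes in pathway order). Idi1 (−1.35), Msmo1 (−0.82) and Cyp51 (−0.79) lie farthest left, and Abca1 (0.70) farthest right.

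Within libraries, the depth of the shift was uneven. The median synthesis gene stood at 70.5%, 70.2% and 52% of the Sglt2Cre mean in Arhgef11Sglt2 libraries 1, 2 and 3, against 90.5%, 104.5%, 105.3%, 94.4% and 96.2% in Sglt2Cre libraries 1 to 5. Arhgef11Sglt2 library 3 was the lowest of its group for 13 of the 19 genes, and Sglt2Cre library 1 was the lowest of its group for 10 of the 19. The 19 genes together made up 0.108%, 0.0857% and 0.0751% of normalized counts in the Arhgef11Sglt2 libraries, against 0.117%, 0.149%, 0.143%, 0.126% and 0.143% in the Sglt2Cre libraries. The summed share was lower in each Arhgef11Sglt2 library than in any Sglt2Cre library, with Arhgef11Sglt2 library 1 and Sglt2Cre library 1 nearest to each other.

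Of the genes that control the pathway, Insig1 lay lower with the enzymes and the other 3 overlapped between groups. Srebf2, which encodes SREBP2, had 4732, 4084 and 4785 normalized counts in the Arhgef11Sglt2 libraries, against 5324, 4480, 5700, 5198 and 5456 in the Sglt2Cre libraries. Only Sglt2Cre library 2 lay within the Arhgef11Sglt2 range, and the log2 difference was −0.19 (SE 0.09). Insig1, which retains SCAP and is itself a target of SREBP2, had 1482, 1050 and 1287 normalized counts in the Arhgef11Sglt2 libraries, against 1922, 2382, 2354, 1717 and 1794 in the Sglt2Cre libraries. Its groups did not overlap, and its ratio was 0.626 (log2 difference −0.52, SE 0.11).

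Scap, the escort protein of SREBP2, had 3602, 3945 and 3340 normalized counts in the Arhgef11Sglt2 libraries, against 3623, 3263, 3522, 3453 and 3436 in the Sglt2Cre libraries, a log2 difference of 0.06 (SE 0.07). Insig2, the second retention protein, had 1534, 1731 and 2108 normalized counts in the Arhgef11Sglt2 libraries, against 1575, 1814, 1765, 2013 and 2018 in the Sglt2Cre libraries, a log2 difference of −0.03 (SE 0.10). Both genes overlapped between groups, and their intervals of −0.09 to 0.21 for Scap and −0.25 to 0.18 for Insig2 include 0. None of the 14 members outside synthesis was called in either direction by limma, 4 of them and 3367 of all genes had an unadjusted p below 0.05, and 2 of the 14 did not overlap between groups. These were Insig1 on the lower side and Nr1h2 on the higher side, beside 8.14% and 6.2% of all genes.

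Uptake and transport genes showed small differences in both directions. Mylip, the ubiquitin ligase that degrades lipoprotein receptors and is induced by liver X receptors, had 1682, 2831 and 2102 normalized counts in the Arhgef11Sglt2 libraries, against 1725, 2347, 1984, 1793 and 1576 in the Sglt2Cre libraries. Library 2 of the Arhgef11Sglt2 group was the highest of the 8, the groups overlapped, and the log2 difference was 0.17 (SE 0.14). Npc1 and Npc2, the proteins that carry cholesterol out of lysosomes, had differences of 0.10 (SE 0.07) and 0.02 (SE 0.07). Tmem97, a partner of Npc1, had a difference of 0.04 (SE 0.08). Stard4, a cytosolic sterol carrier, had a difference of −0.24 (SE 0.11), with Arhgef11Sglt2 libraries 1 and 2 at 77.6% and 72.4% of the Sglt2Cre mean and library 3 at 100.9%. The median difference of these 5 genes was 0.04.

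Among the efflux genes, Abca1 had the most positive difference of the 33, and the other 3 had smaller differences of either sign. Abca1, the exporter that loads cholesterol onto apolipoproteins, had 3274, 4855 and 6592 normalized counts in the Arhgef11Sglt2 libraries, against 2551, 3880, 2472, 2461 and 2409 in the Sglt2Cre libraries. Sglt2Cre library 2 lay above Arhgef11Sglt2 library 1, so the groups overlapped. The mean was 4907 ± 1659 in Arhgef11Sglt2 (SD, n = 3) and 2754.5 ± 631 in Sglt2Cre (SD, n = 5), a ratio of 1.78 and a log2 difference of 0.70 (SE 0.20), which was not called. Abcg1, the exporter that passes cholesterol to high-density lipoprotein, had 563, 739 and 521 normalized counts in the Arhgef11Sglt2 libraries, against 797, 640, 558, 714 and 952 in the Sglt2Cre libraries. It overlapped between groups, with a log2 difference of −0.16 (SE 0.11), opposite in sign to that of Abca1.

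The 2 liver X receptor genes differed in sign. Nr1h2, which encodes the beta receptor, had 2677, 2643 and 3500 normalized counts in the Arhgef11Sglt2 libraries, against 2365, 2260, 2538, 2605 and 2428 in the Sglt2Cre libraries. Libraries 1 and 2 of the Arhgef11Sglt2 group lay just above the highest Sglt2Cre value, and the log2 difference was 0.22 (SE 0.09). Nr1h3, which encodes the alpha receptor, had 1506, 1221 and 913 normalized counts in the Arhgef11Sglt2 libraries, against 1237, 1239, 1387, 1395 and 1181 in the Sglt2Cre libraries. Its Arhgef11Sglt2 libraries spanned the whole Sglt2Cre range, with a log2 difference of −0.08 (SE 0.11). Soat1, which esterifies cholesterol for storage, had a difference of −0.07 (SE 0.09).

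**Figure D3:**
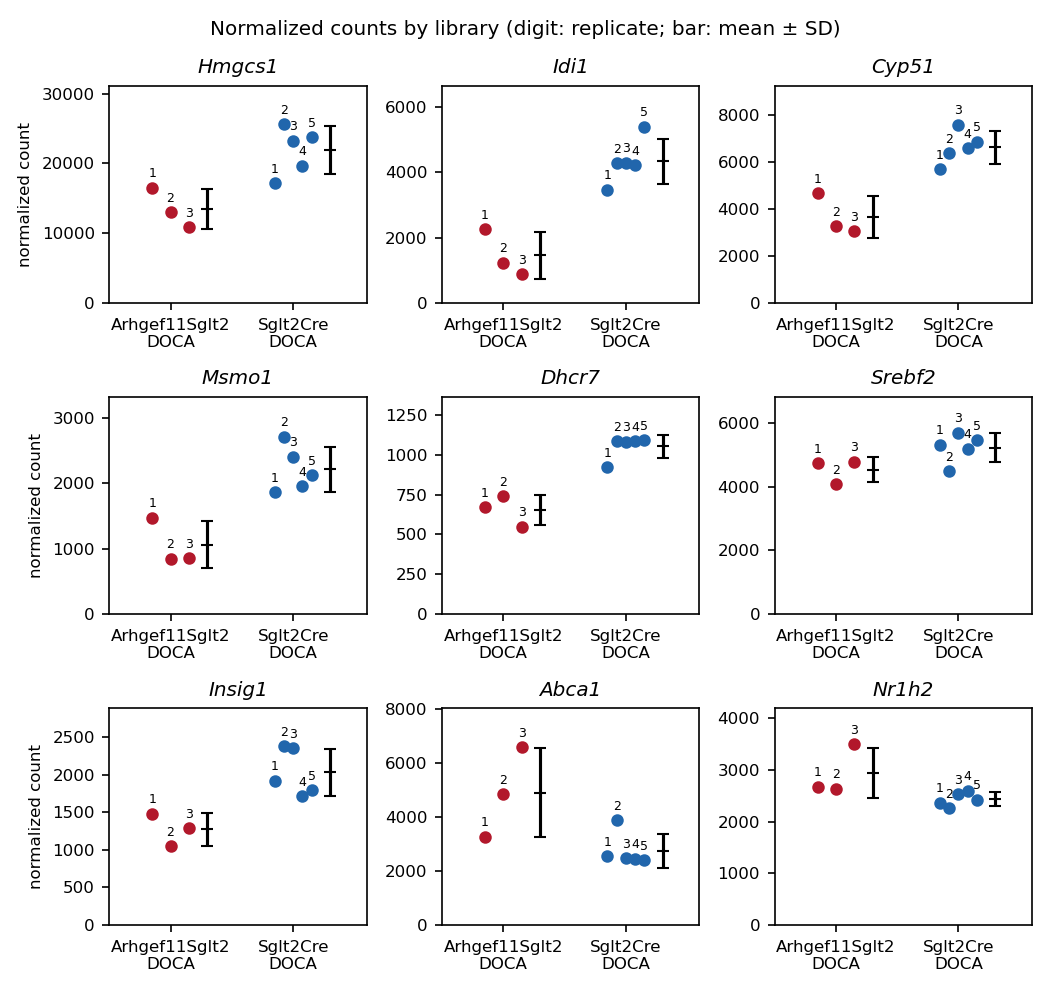
Normalized counts (y axis, from 0) of 9 of the 33 genes in the 3 Arhgef11Sglt2 and 5 Sglt2Cre libraries (x axis), each point a library numbered by replicate, with mean ± SD beside it. Idi1, Cyp51, Msmo1 and Dhcr7 show no overlap between groups, while for Abca1 Sglt2Cre library 2 (3880) lies above Arhgef11Sglt2 library 1 (3274).

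The direct contrast of synthesis with efflux was made within each library, as the median deviation of the 19 synthesis genes minus that of the 4 efflux genes. It was −0.52, −0.46 and −0.71 in Arhgef11Sglt2 libraries 1, 2 and 3, against −0.08, 0.12, 0.10, −0.10 and 0.01 in Sglt2Cre libraries 1 to 5. All 3 Arhgef11Sglt2 values were below the Sglt2Cre values. Deviations were taken from the Sglt2Cre mean, so the Sglt2Cre values are centred by construction. With synthesis genes chosen with results known, the contrast is a description and not a test. The efflux genes are the exporters Abca1 and Abcg1 and the receptor genes Nr1h2 and Nr1h3. Taken over the log2 differences, the median of the synthesis genes lay 0.58 below that of the efflux genes, which was 0.07 and came from 2 positive and 2 negative genes. The library names hold numbers in 2 ranges, whose meaning the labels do not give. In the lower range, with Arhgef11Sglt2 libraries 1 and 2 against Sglt2Cre libraries 1 to 3, the synthesis median was −0.43 and limma called no gene. There 12 of the 19 synthesis genes and 1591 of all 15948 genes had an unadjusted p below 0.05. The synthesis genes were chosen with results known, so nothing is read from that count. In the upper range, with Arhgef11Sglt2 library 3 against Sglt2Cre libraries 4 and 5, the synthesis median was −0.57. The difference was negative for 16 of the 19 genes in each range.

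Genes next to the cholesterol pathway were read from lists of known pathway members. These lists, and the marker lists below, were also chosen with earlier results of these data known. Their counts and p-values are therefore given as a description only. Of 15 genes of fatty acid synthesis, many of them targets of SREBP1, 4 were called lower and none higher, beside 1.59% and 0.627% of all genes. Over the 15, the log2 difference was negative for 12 and positive for 3, with a median of −0.28. Acss2, which makes acetyl-CoA from acetate, had 5941, 5145 and 3811 normalized counts in the Arhgef11Sglt2 libraries, against 8169, 9880, 8758, 9629 and 10543 in the Sglt2Cre libraries (log2 difference −0.87, SE 0.13, limma adjusted p = 0.0176). Acaca, acetyl-CoA carboxylase, had 1466, 1197 and 1268 normalized counts in the Arhgef11Sglt2 libraries, against 2113, 2335, 2069, 2042 and 2146 in the Sglt2Cre libraries (log2 difference −0.55, SE 0.07, limma adjusted p = 0.0143). Both genes were lower in each Arhgef11Sglt2 library than in any Sglt2Cre library. The desaturases Fads2 (ratio 0.667, limma adjusted p = 0.0189) and Scd2 (ratio 0.707, limma adjusted p = 0.0454) were also called lower. Srebf1, which encodes SREBP1, had a ratio of 0.793 (limma adjusted p = 0.2), and Fasn, fatty acid synthase, a ratio of 0.564 (limma adjusted p = 0.14). Acly, which makes cytosolic acetyl-CoA from citrate, had a ratio of 1 and a log2 difference of 0 (SE 0.07).

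The branches that leave the pathway at farnesyl diphosphate held 12 measured genes. Of these, 1 was called lower and none higher, beside 1.59% and 0.627% of all genes, while 8 had negative and 4 positive log2 differences. Groups did not overlap for 5 genes on the lower side and none on the higher side, beside 8.14% and 6.2% of all genes. The 5 were Dhdds, Nus1, Pdss1, Pdss2 and Zmpste24. An unadjusted p below 0.05 in limma was seen for 5 of the 12, beside 3367 of all 15948 genes. Nus1, a subunit of the enzyme that builds dolichol, had a ratio of 0.726 (limma adjusted p = 0.0464), while its partner Dhdds had a ratio of 0.852 (limma adjusted p = 0.136). The genes for prenyl transfer onto proteins had log2 differences between −0.06 (Rabggta) and 0.10 (Fnta). The site proteases that release SREBP had log2 differences of −0.15 (Mbtps1, SE 0.08) and 0.10 (Mbtps2, SE 0.09).

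Of 6 genes for lipoprotein receptors and their chaperone, Lrp2 and Lrpap1 were called lower and none higher, beside 1.59% and 0.627% of all genes. Over the 6, the log2 difference was negative for 3 and positive for 3, with a median of 0.06. Groups did not overlap for 2 genes on the lower side and 2 on the higher side, beside 8.14% and 6.2% of all genes. Lrp2, the endocytic receptor megalin, which was also counted among the early proximal tubule markers, had a ratio of 0.613 (log2 difference −0.73, SE 0.15, limma adjusted p = 0.0462). Lrpap1, its chaperone, had a ratio of 0.655 (log2 difference −0.59, SE 0.08, limma adjusted p = 0.0172). Scarb1, the high-density lipoprotein receptor, had a log2 difference of 0.21 (SE 0.07, limma adjusted p = 0.116). Lrp8 had 249, 218 and 1186 normalized counts in the Arhgef11Sglt2 libraries, against 147, 154, 130, 172 and 181 in the Sglt2Cre libraries, so 1 library set its mean (limma adjusted p = 0.182).

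None of the 12 lysosomal and cytosolic sterol transport genes, the 7 measured further targets and partners of the liver X receptors (of 9 listed) or the 6 oxysterol and bile acid enzymes passed the threshold in limma. At an unadjusted p below 0.05 there were 2, 1 and 2 of them in these lists, beside 3367 of all 15948 genes. Scarb2, a lysosomal membrane protein, had 4356, 4567 and 7210 normalized counts in the Arhgef11Sglt2 libraries, against 3207, 2722, 3331, 3345 and 3760 in the Sglt2Cre libraries (limma adjusted p = 0.065). Its groups did not overlap. Arl4c, a target of the liver X receptors, had a log2 difference of 0.29 (SE 0.10, limma adjusted p = 0.153), and Ch25h, an oxysterol-forming hydroxylase, one of 0.24 (SE 0.10, limma adjusted p = 0.207).

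Most of these calls also changed when single libraries were left out. Acaca was called whichever library was left out, and Acss2 was called except without Sglt2Cre library 4. Fads2 and Lrpap1 were not called without Arhgef11Sglt2 library 3 or without Sglt2Cre library 4. Lrp2 was called in 2 of the 8 exclusions, and Scd2 and Nus1 in 1, that of Arhgef11Sglt2 library 1.

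Markers of some kidney cell types also differed between the groups, and others did not. In the distal convoluted tubule, collecting duct, podocyte, endothelium, fibroblast and lymphocyte lists, no gene was called and every gene overlapped between groups. The median log2 differences of these lists were −0.22, −0.16, 0.07, −0.06, −0.04 and −0.04. The labelled tissue was kidney, and proximal tubule, thick limb, collecting duct and podocyte markers were present in every library. Of 6 markers of the late proximal tubule, Slc7a13, Slc22a30, Acy3 and Mep1b were called lower, beside 1.59% of all genes. Their ratios were 0.138, 0.233, 0.363 and 0.419. Slc5a8 and Cyp2e1, the rest of the list, had ratios of 0.678 and 0.909 and overlapped between groups. With 1 library left out, Slc22a30 and Mep1b were called in 6 of 8 exclusions, Acy3 in 4 and Slc7a13 in 3, and none of them without Arhgef11Sglt2 library 3 or without Sglt2Cre library 4. Slc7a13, a transporter of that segment, had 3741, 1259 and 2107 normalized counts in the Arhgef11Sglt2 libraries, against 6247, 8538, 19111, 22236 and 29401 in the Sglt2Cre libraries. Summed over the 6 markers, counts ran from 47206 to 65504 in the Arhgef11Sglt2 libraries and from 65052 to 127913 in the Sglt2Cre libraries. In Sglt2Cre libraries 1 to 5 these sums were 65052, 104918, 118991, 110847 and 127913. The median synthesis gene in the same libraries stood at 90.5%, 104.5%, 105.3%, 94.4% and 96.2% of the Sglt2Cre mean. Of 7 early proximal tubule markers, the phosphate transporter Slc34a1 (ratio 0.618, limma adjusted p = 0.0491) and Lrp2 were called lower, beside 1.59% of all genes. Slc34a1 was called in 1 of the 8 exclusions, that of Arhgef11Sglt2 library 2, and Lrp2 in 2, those of Arhgef11Sglt2 libraries 1 and 2. The 7 markers had sums of 213866 to 337217 in the Arhgef11Sglt2 libraries and 361930 to 404153 in the Sglt2Cre libraries. The early proximal tubule median deviation was −0.72, −0.03 and −0.86 in Arhgef11Sglt2 libraries 1, 2 and 3. In library 2 these markers ran from 74.7% (Slc22a6) to 203.9% (Slc6a19) of the Sglt2Cre mean. The late proximal tubule median deviation was −0.94, −1.35 and −1.33 in libraries 1, 2 and 3, and that of synthesis −0.38, −0.40 and −0.63. A link between these values was not tested.

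Thick limb markers were also lower in part. Of 5 markers, the claudin Cldn10 was called lower (ratio 0.659, limma adjusted p = 0.0476), beside 1.59% of all genes. Cldn10 was called in 1 of the 8 exclusions, that of Arhgef11Sglt2 library 1. Slc12a1, the sodium, potassium and chloride transporter of that segment, had a ratio of 0.617 (limma adjusted p = 0.0536). Of the 5 markers, 3 lay lower without overlap between groups, beside 8.14% of all genes. The median deviation of the 5 markers was −0.21, −0.42 and −0.72 in Arhgef11Sglt2 libraries 1, 2 and 3, against 0.10, 0.12, −0.08, −0.10 and −0.08 in Sglt2Cre libraries 1 to 5. Umod, the abundant uromodulin of the segment, had a ratio of 1.02, and the sums ran from 232109 to 279253 in the Arhgef11Sglt2 libraries and from 274663 to 322669 in the Sglt2Cre libraries.

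Of 5 markers of injured tubules, Lcn2 (ratio 3.14, limma adjusted p = 0.0154) and Krt20 (ratio 7.47, limma adjusted p = 0.0458) were called higher, beside 0.627% of all genes. All 5 had positive log2 differences, and 3 lay higher without overlap, beside 6.2% of all genes. Havcr1 and Vcam1 overlapped between groups. Havcr1 stood at 522%, 137% and 90.8% of the Sglt2Cre mean in Arhgef11Sglt2 libraries 1, 2 and 3, and Vcam1 at 291.3%, 111% and 53%. Krt20 had 2481, 697 and 626 normalized counts in Arhgef11Sglt2 libraries 1, 2 and 3, so library 1 set much of its mean. Lcn2 was called in 6 of the 8 exclusions, lost without Arhgef11Sglt2 library 3 or without Sglt2Cre library 4, and Krt20 in 2, those of Arhgef11Sglt2 libraries 1 and 2. The sums of the 5 markers ran from 12167 to 33509 in the Arhgef11Sglt2 libraries and from 5255 to 9137 in the Sglt2Cre libraries. Arhgef11Sglt2 library 1 had the highest sum, with Havcr1, the kidney injury molecule, at 16766 normalized counts. It had the highest count of the Arhgef11Sglt2 libraries for 9 of the 19 synthesis genes. Arhgef11Sglt2 libraries 2 and 3, with sums of 12167 and 12190, had the highest count for 7 and 3 of the 19. Of 7 macrophage markers none passed the threshold, with sums of 17539 to 48563 in the Arhgef11Sglt2 libraries and 27341 to 41257 in the Sglt2Cre libraries. Of 4 adipocyte markers none passed the threshold, with sums of 92 to 348 in the Arhgef11Sglt2 libraries and 3 to 1106 in the Sglt2Cre libraries. Adipoq, the defining adipocyte marker, was at 0 in Arhgef11Sglt2 library 3 and in Sglt2Cre libraries 3, 4 and 5. With only those 4 libraries, a choice made after seeing the data, the synthesis median was −0.63 and 16 of 19 differences were negative. The part of tubule segment content and tubule injury in the synthesis and Abca1 values was not tested.

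**Figure D4:**
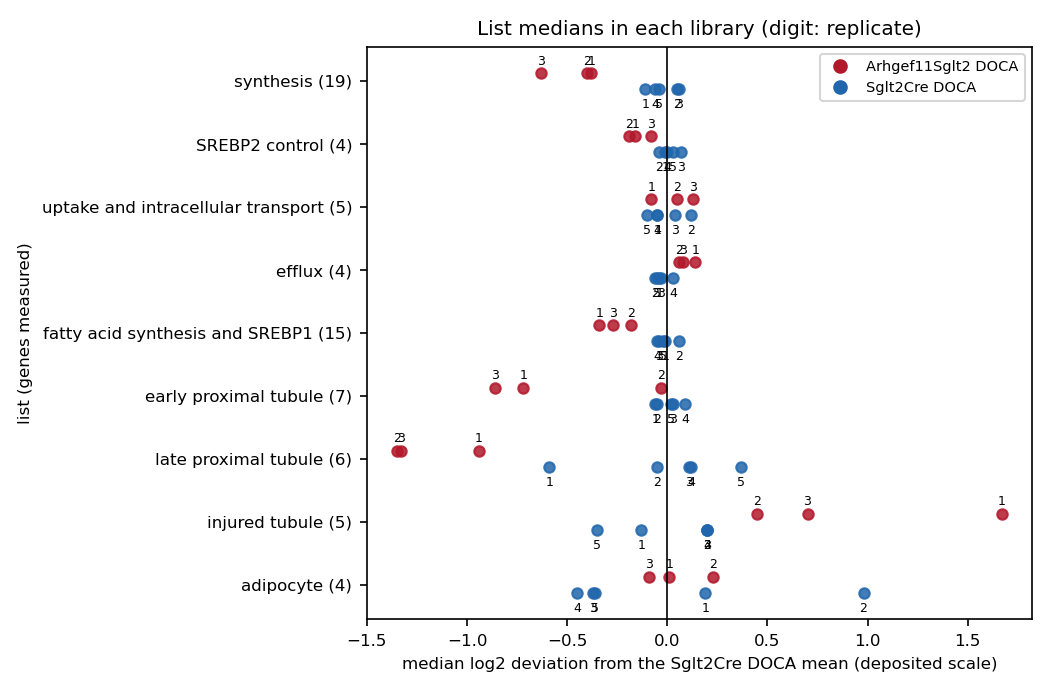
Median log2 deviation from the Sglt2Cre mean (x axis, deposited scale) of 9 gene lists (y axis, measured genes in brackets), each point a library numbered by replicate. For synthesis the Arhgef11Sglt2 libraries sit at −0.38, −0.40 and −0.63, left of all Sglt2Cre libraries, as they do for late proximal tubule markers, and for injured tubule markers they sit to the right.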

How the data were processed

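RNA from 8 mouse kidney libraries was sequenced. Per the labels' protocols, stranded TruSeq libraries were pooled and read in pairs on a NextSeq instrument. Salmon 1.10.0, DESeq2 and build GRCm39 were used, per the submitters' processing notes, while the DESeq2 version, annotation and gene filter were not given in the sources used here. Log2 values for 15948 genes were what the authors deposited, in 1 table. From the values, the scale is variance-stabilized: the lowest value is 8.1275 in every column (279.7 when unlogged), taken as a count of 0. Inverting the closed form of that transformation gave normalized counts. Low values piled up at multiples of a step (31% to 55.4% lay within 0.02 steps of a whole number up to 5 steps, against 4% by chance), but many did not, so whole reads were not recovered, no count model was run, and depth is an estimate.

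The test was limma 3.58.1 in R 4.3.3: group as the only term, 8 libraries, variances that follow the mean, 6 residual degrees of freedom, with p-values adjusted by Benjamini-Hochberg over all 15948 genes and a threshold of 0.05. The procedure was tested on simulated data. A p-value here reflects the spread among these libraries only. Symbols matched 15902 identifiers (99.71%). The members, lists and tests were chosen with earlier results of these data known. All members are accounted for, values in every library are given for called members, control genes, the main efflux genes and the first and last enzymes, and of the other lists the called genes and up to 3 with the smallest p, of which not all are named. In addition, 1 called gene of a pathway list and the count over that list are not reported here. Any further gene with values was picked for description after they were seen. Alternatives covered a filter, replicate and library-range terms, variance moderation, sample weights, pseudocounts of 1 and 10, scaling, another threshold and leaving out each library. Promoter windows came from RefSeq, build GRCm38.p6, which differs from the build of the files, so no other coordinates are given.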

Additional observations from a re-analysis of the deposited data

Results flagged for a closer look

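In the 5 Sglt2Cre libraries, 3 of the 33 genes had 1 library far from the other 4 by Dixon's test, which chance gives in about 1 in 20 groups. Nsdhl had 3001 normalized counts in library 2, with the nearest other library at 2633. Dhcr7 had 921 in library 1, nearest to the Arhgef11Sglt2 libraries, with the next at 1082. Abca1 had 3880 in library 2, with the next at 2551, and this is the value that makes Abca1 overlap between groups. The Arhgef11Sglt2 group, with 3 libraries, was too small for this test.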

How the results depend on the processing

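Among the 33 genes, none of the 8 called differences changed sign under any alternative. The 8 synthesis calls became 0 with the replicate block and 0 within the lower library number range, where limma called no gene at all (12 of 19 had an unadjusted p below 0.05 in each), and ranged from 0 to 12 when 1 library was left out. Calls among the other members, 0 as reported, were 1 with a minimum mean of 100 normalized counts, 1 with the library range as a term, 2 with sample weights, 1 each with log2(normalized count + 1) and log2(normalized count + 10), 2 at an adjusted p of 0.1, and 0 to 2 with 1 library left out. The synthesis median was −0.66 with either pseudocount, −0.63 without the libraries with Adipoq (chosen after seeing the data), and −0.53 to −0.38 with 1 library left out. The median of the other members ranged from −0.03 to 0.03 with 1 library left out. Synthesis minus efflux was −0.46 with sample weights, −0.73 with either pseudocount and −0.62 to −0.46 with 1 library left out. The cause of these shifts was not tested. Over all genes, 354 calls became 874 with sample weights, 1038 at an adjusted p of 0.1, and between 24 (without Sglt2Cre library 4) and 1334 (without Arhgef11Sglt2 library 1) with 1 library left out. Scaling to equal totals gave 178 lower and 149 higher calls, against 254 lower and 100 higher, with 6 synthesis calls. Replicate numbers did not pair samples (correlations −0.175, −0.088 and −0.007). With the replicate block, 17 of 19 synthesis differences were negative. Depth per library is estimated only, and 3 against 5 libraries limit the precision.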
